A study of Mus musculus with 9 samples.

Results

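The adhesion genes described here are integrin chains, the adaptors that tie integrins to actin, and the ligands and surface receptors of leukocyte adhesion, as read in the transcriptomes of mouse colon macrophages. They were chosen as a named list of 39 symbols, kept where the deposited normalized count was at least 10 in at least 3 of the 9 libraries. Of the 39, 37 passed, out of 14404 genes of the table's 42454 that passed the same limit. The 37 are 11 of 12 integrin alpha chains, 5 of 6 integrin beta chains, 14 adaptors and kinases, and 7 ligands and surface receptors. RNA was sequenced from macrophages with low Ly6C and positive MHC class II that were sorted from the lamina propria of the colon, the connective tissue under the gut epithelium. The mice were 6 weeks old and were WT, p47phox-/- or gp91phox-/-, with 3 libraries per genotype. The p47phox and gp91phox proteins belong to the superoxide-making NADPH oxidase of phagocytes, and the series title places the work in a study of reactive oxygen species and intestinal macrophage development. The sources used here do not state strain, sex, how the alleles were made, pooling, or that libraries of a genotype are separate animals. The p-values therefore cover only the spread between the deposited libraries, which may be technical.

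The libraries held 31141107 to 52797368 reads on genes. In p47phox-/-, replicates 2 and 3 had reads on 14323 and 14268 genes, against 15825 to 18760 in the other 7 libraries, and each lay at its own end of the second principal component, so results that rest on them are also given without them. That fit leaves 1 p47phox-/- library, which is assumed to vary like the libraries of WT and gp91phox-/-, so a call lost there does not show that the difference was lost. Macrophage and MHC class II transcripts were high in all 9 libraries, and the 12 macrophage markers summed to 537730 to 808460 normalized counts. The p47phox gene Ncf1 was at 10066, 8990 and 10815 in WT replicates 1, 2 and 3 and at 2718, 3733 and 3133 in p47phox-/-. The gp91phox gene Cybb had a listed value of 0 in each of the 9 libraries. The same held for Msn and Flna, cytoskeletal genes that most cells use and that also lie on chromosome X, so the gp91phox-/- label could not be checked on its target.

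Integrins are receptors made of 1 alpha and 1 beta chain that bind matrix or other cells outside and the cytoskeleton inside. Talins and kindlins bind the tail of the beta chain and switch the receptor to its active state, and vinculin, paxillin, zyxin, alpha-actinins, integrin-linked kinase with its parvin partners, and the kinases FAK and Pyk2 build the adhesion complex around that tail. On leukocytes, the Itgb2 chain pairs with Itgal, Itgam, Itgax or Itgad and binds intercellular adhesion molecules such as Icam1, while Itga4 pairs with Itgb1 or Itgb7 and binds Vcam1. Mononuclear phagocytes of the gut are commonly recognised by the Itgam and Itgax proteins, known as CD11b and CD11c.

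Levels in WT were first compared per length, as normalized counts per kb of exon in the GENCODE M21 annotation (mean ± SD, n = 3). Among alpha chains Itgam was the highest at 7304 ± 1337, followed by Itgax at 3065 ± 736, Itga5, the fibronectin receptor chain, at 1965 ± 143, and Itgal, the alpha chain of LFA-1, at 1479.8 ± 74.8. The WT libraries of Itgal overlapped with those of Itga9 (1321 ± 277), and those of Itgav (627 ± 249) with those of Itga4 (542 ± 143), so these neighbours did not differ beyond their spread. Itga6, a laminin receptor chain, was at 143 ± 40.8, and Itga8, Itga1 and Itga3 were at 8.21 to 21.0 with overlapping libraries. Beta chains fell into an order without overlap between neighbours. Itgb2 stood at 6954 ± 543, Itgb5 at 4668 ± 815, Itgb1 at 3145 ± 206, Itgb7 at 969 ± 140.3 and Itgb3 at 106 ± 37.4.

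Among talins, kindlins and the FAK family, 1 member of each pair held nearly all of the signal. Talin 1 (Tln1) was at 2680.2 ± 407 per kb and talin 2 (Tln2) at 8.06 ± 1.57. The blood cell kindlin Fermt3 was at 1465 ± 41.6 against 10.7 ± 0.481 for the widely expressed kindlin Fermt2, and Ptk2b, which encodes Pyk2, was at 806 ± 42.4 against 18.0 ± 1.12 for Ptk2, which encodes FAK. Among surface molecules the hyaluronan receptor Cd44 led at 5449.7 ± 436, followed by Icam1 at 2697 ± 281. The selectin ligand Selplg (1345 ± 213), Vcam1 (1335 ± 81.0) and the junctional adhesion molecule F11r (1277 ± 355) came next with overlapping libraries, and Pecam1 (579 ± 217) and Icam2 (108 ± 49.8) were lower. These levels depend on the annotation used in counting, which no source used here names. In GENCODE M21 another gene model, Gm49368, covers 68.7% of the exon bases of Itgam on the same strand, and Taf10 covers 76.8% of those of Ilk on the opposite strand, so the levels of Itgam and Ilk are uncertain.

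**Figure D1:**
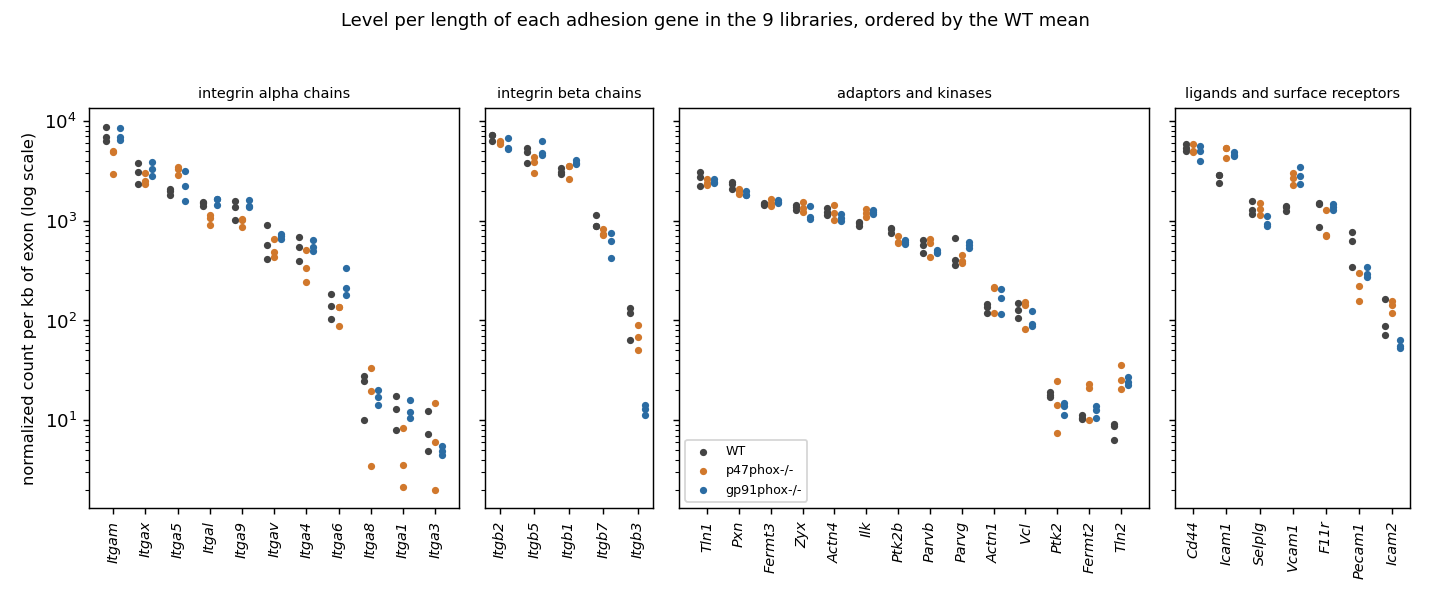
Normalized counts per kb of exon on a log axis for the 37 adhesion genes, with 1 dot per library and the genotype as colour, in 4 panels by role. Within each panel genes are ordered by the WT mean, from Itgam, Itgb2, Tln1 and Cd44 at the left to Itga3, Itgb3, Tln2 and Icam2 at the right.

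Most adhesion genes were not called in any comparison, and the calls fell on 12 of the 37. A gene was called at an adjusted p under 0.05 in 1 limma fit of all 14404 genes. In p47phox-/- versus WT, 3 members rose (Tln2, Icam1 and Vcam1), 1 fell (Pecam1) and 33 were not called, against 1.12% of all genes called (0.625% higher and 0.5% lower). In gp91phox-/- versus WT, 3 rose (Tln2, Icam1 and Vcam1), 2 fell (Itgb3 and Itgb7) and 32 were not called, against 7.05% of all genes (2.53% higher and 4.53% lower). The 2 comparisons share the WT libraries, so their values are given side by side and their resemblance is not a result. Between the knockouts, 5 members were higher in gp91phox-/- (Itgal, Itgam, Itga1, Itga6 and Itga9) and 2 were lower (Itgb3 and Icam2), against 9.93% of all genes (3.97% higher and 5.96% lower). The median log2 fold change of the 37 was -0.19, 0.05 and -0.05 in the 3 comparisons in that order, against -0.02, 0.01 and 0.02 over all genes tested.

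The member counts moved with the libraries used. The 4 members called in p47phox-/- versus WT became 1 when either the third WT or the third p47phox-/- library was left out. Without p47phox-/- replicates 2 and 3, the median log2 fold change of the 37 in p47phox-/- versus WT was -0.04, against 0.04 over all genes. That fit leaves 1 p47phox-/- library, and the other tools were not run on that subset. The 7 between the knockouts became 4 without WT replicate 1 or without p47phox-/- replicate 2, 3 without p47phox-/- replicate 3 or gp91phox-/- replicate 2 or 3, 2 without gp91phox-/- replicate 1, and 1, Itgb3, with 1 p47phox-/- library left, where all 7 log2 fold changes kept their sign. The balance of 3 higher and 2 lower in gp91phox-/- versus WT was 3 and 1 with TMM scaling and 3 and 4 with quantile normalization. By ranks alone, groups did not overlap for 11 members in p47phox-/- versus WT (5 higher and 6 lower, against 17.7% of all genes, 9.25% higher and 8.49% lower), for 12 in gp91phox-/- versus WT (5 higher and 7 lower, against 33.3%, 15.1% higher and 18.2% lower), and for 13 between the knockouts (10 higher and 3 lower in gp91phox-/-, against 30.9%, 13.6% higher and 17.3% lower).

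**Figure D2:**
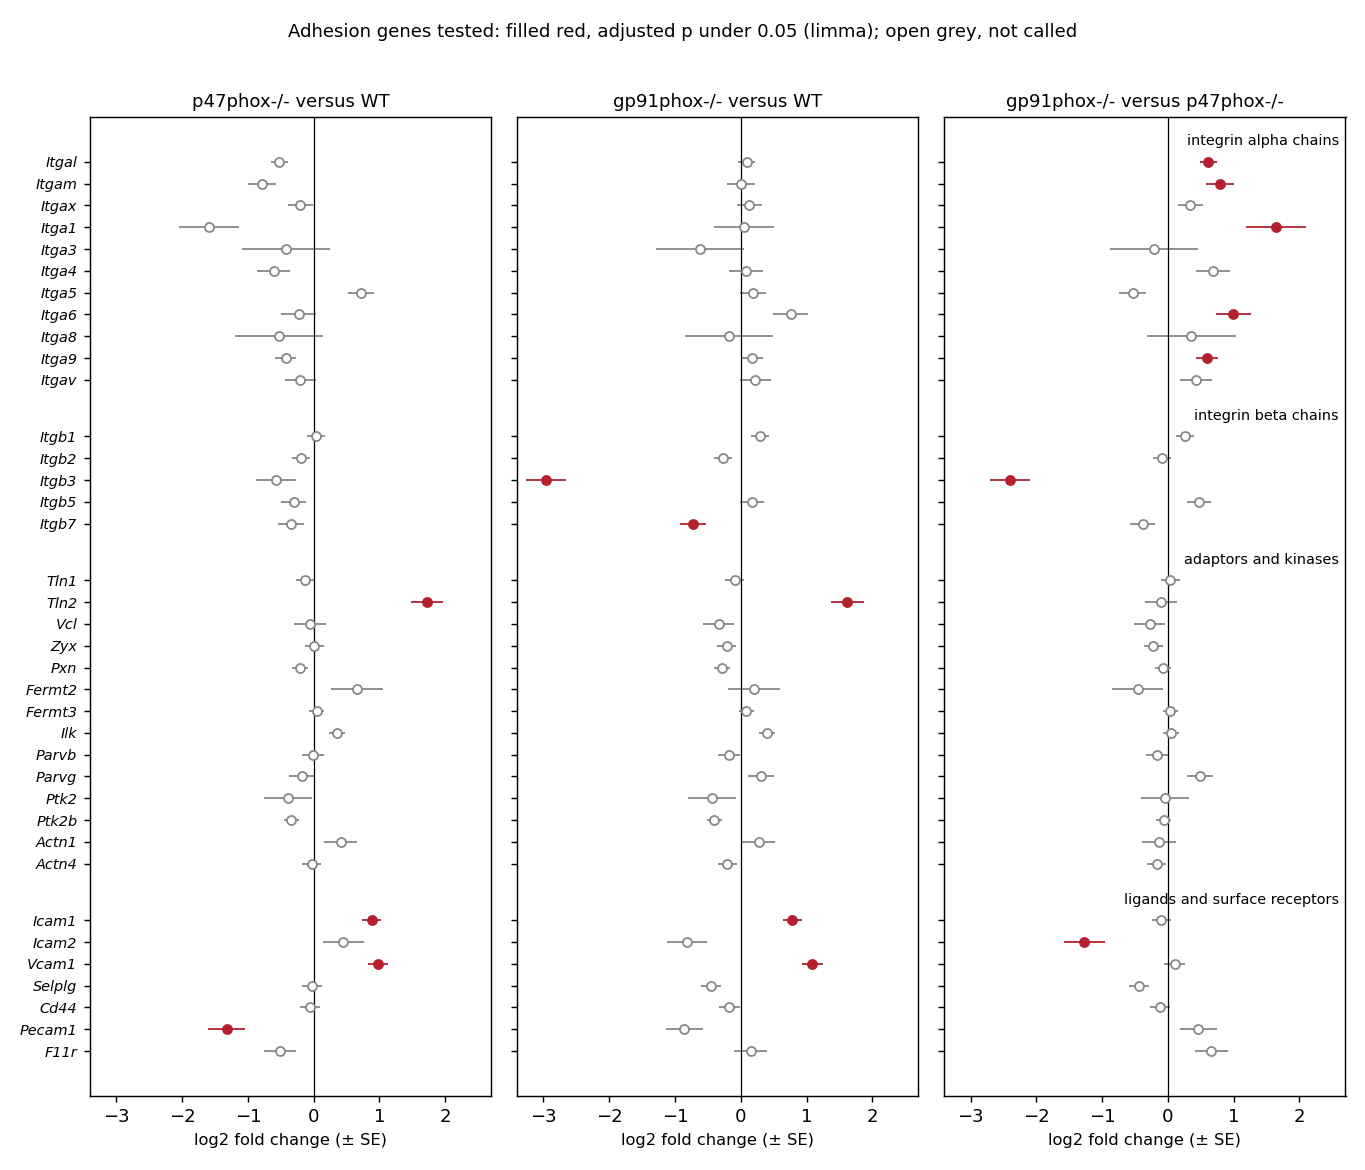
Log2 fold change (x axis, ± SE from limma) of the 37 adhesion genes in the 3 comparisons, grouped by role from alpha chains at the top to ligands and surface receptors at the bottom. Filled red points are the 4, 5 and 7 members called in the panels from left to right, and open grey points were not called.

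The ligands Icam1 and Vcam1 were both higher in the 2 knockouts than in WT. Icam1 encodes the main ligand of the Itgb2 integrins (GRCm38, chromosome 9, 21015985 to 21028817). It had normalized counts of 12479, 10346 and 12453 in WT replicates 1, 2 and 3, 18394, 23223 and 23567 in p47phox-/- and 21559.9, 19357 and 19709 in gp91phox-/-. Each knockout library lay above each WT library. Icam1 rose in p47phox-/- (log2 fold change 0.88, SE 0.14, limma adjusted p = 0.0117) and in gp91phox-/- (log2 fold change 0.78, SE 0.14, limma adjusted p = 0.00495), and the difference between the knockouts was not called (log2 fold change -0.10, SE 0.14, limma adjusted p = 0.703).

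Vcam1, which binds integrins with the Itga4 chain (chromosome 3, 116109949 to 116129688), was at 12089, 11029.6 and 12401 in WT, 26424, 20325 and 23549 in p47phox-/- and 24991, 30374 and 20782 in gp91phox-/-. The lowest knockout library was 1.64 times the highest WT library. Vcam1 rose in p47phox-/- (log2 fold change 0.98, SE 0.16, limma adjusted p = 0.0135) and in gp91phox-/- (log2 fold change 1.08, SE 0.16, limma adjusted p = 0.00142). In gp91phox-/- both genes remained called in all 22 alternatives. In p47phox-/- Icam1 was no longer called when the library left out was WT replicate 3, or p47phox-/- replicate 3 (adjusted p = 0.0501 at the lowest and 0.0703 at the highest), and Vcam1 when it was WT replicate 3, or p47phox-/- replicate 3 (adjusted p = 0.0596 at the lowest and 0.064 at the highest). With p47phox-/- replicates 2 and 3 both left out, Icam1 had a log2 fold change of 0.65 (adjusted p = 0.27) and Vcam1 a log2 fold change of 1.16 (adjusted p = 0.109).

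The summed level of fibroblast and smooth muscle markers was also higher in all 6 knockout libraries than in WT. The 14 markers of those cells, none at 0 in all libraries, summed to 7587 to 10150.2 normalized counts in WT, 13072 to 20025 in p47phox-/- and 10799 to 13006 in gp91phox-/-. Of the 14, 3 and 2 were called higher in the knockouts in that order. All 14 log2 fold changes were positive in p47phox-/- versus WT. In gp91phox-/- versus WT, 12 were positive and 2 negative. There 5 lay above WT in every library and 1, Dcn, below it, 42.9% of the 14 against 33.3% of all genes. The 8 platelet or megakaryocyte markers summed to 6399.8 to 8837 in WT, 12285 to 16313 in p47phox-/- and 9344 to 11727 in gp91phox-/-, likewise higher in all 6 knockout libraries. Only 4 of the 8 were tested. In p47phox-/- versus WT, 3 had positive log2 fold changes and 1 a negative one, and Pf4 alone was called. In gp91phox-/- versus WT, 2 were positive and 2 negative and none was called. There Pf4 lay above WT in every library, and Itga2b and Ppbp lay below it. The part of either list in the rise of Icam1, Vcam1 and Tln2 was not tested. In RNA from sorted bulk cells, fewer cells of a type and less RNA per cell cannot be told apart.

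The promoter of Icam1 is shown because it was the 1 member promoter, of those of 26 members matched in the RefSeq promoter table (GRCm38.p6), with a match to either of 2 motifs of cytokine signalling. The window is chr9:21015690-21015989 on the plus strand, from 250 bases before the RefSeq transcription start to 50 after it. That start lies upstream of the GENCODE gene start given above. Capitals mark, from left to right, GGANNTTCC, a form of the site of NF-kB, and TTCNNNGAA, the site of STAT factors, searched on both strands, and the 2 matches do not overlap. The motifs were chosen after the sequence had been seen. The others searched were TGANTCA (AP-1), found in 6 of the 26 members' promoters and 7.81% of all windows, GAGGAAGT (PU.1), in 3 and 3.20%, and an ISRE-like motif of the interferon response, in 1 and 3.44%.

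Icam1 promoter: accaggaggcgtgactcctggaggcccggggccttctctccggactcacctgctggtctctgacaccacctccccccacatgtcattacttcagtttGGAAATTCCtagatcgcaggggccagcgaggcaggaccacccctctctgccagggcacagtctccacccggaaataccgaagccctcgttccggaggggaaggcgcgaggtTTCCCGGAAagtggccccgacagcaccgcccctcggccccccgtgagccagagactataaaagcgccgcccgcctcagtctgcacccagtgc

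The first match begins 153 bases and the second 42 bases before the RefSeq start. Of 32851 promoter windows of this length, 4.26% hold GGANNTTCC and 8.30% hold TTCNNNGAA. A match is a description of these letters and not of binding.

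Pecam1 and Icam2, which mark endothelium and are also carried by leukocytes, moved otherwise. Pecam1, a homophilic adhesion receptor (chromosome 11, 106654217 to 106750628), was at 4809, 2144 and 3869 in WT, 1382, 1874 and 985 in p47phox-/- and 1708, 1816 and 2159 in gp91phox-/-. Each p47phox-/- library was below each WT library, with WT spread over more than the distance between the groups, while the highest gp91phox-/- library was above the lowest WT one. Pecam1 fell in p47phox-/- (log2 fold change -1.32, SE 0.28, limma adjusted p = 0.047) and was not called in gp91phox-/- (log2 fold change -0.86, SE 0.28, limma adjusted p = 0.0921). The fall was not called without WT replicates 1 or 3, p47phox-/- replicates 1 or 3, or gp91phox-/- replicates 1, 2 or 3 (adjusted p = 0.058 at the lowest and 0.193 at the highest), in edgeR (adjusted p = 0.0513) or with the replicate block (adjusted p = 0.0713). Without p47phox-/- replicates 2 and 3 its log2 fold change was -1.30 (adjusted p = 0.285). In gp91phox-/- versus WT, Pecam1 was called lower by DESeq2 (adjusted p = 0.0136). Limma called it there with array weights (adjusted p = 0.0128) and without WT replicate 2 (adjusted p = 0.0205). The difference of Pecam1 between the knockouts was not called. The other 11 endothelial markers summed to 4756 to 10901 in p47phox-/- and 3616 to 7554 in WT, overlapping. Of all 12 endothelial markers, 10 had a negative log2 fold change in p47phox-/- and Pecam1 alone was called, and the part of endothelial cells in its fall was not tested.

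Icam2, a second ligand of Itgal integrins (chromosome 11, 106377656 to 106388075), was at 167, 314 and 136 in WT, 226, 272 and 299 in p47phox-/- and 120.1, 101 and 106 in gp91phox-/-. All gp91phox-/- libraries were below all others, and WT replicate 2 was above all p47phox-/- ones. The difference between the knockouts was called (log2 fold change -1.27, SE 0.31, limma adjusted p = 0.0235), and neither knockout was called against WT (adjusted p = 0.511 and 0.145). The difference was not called without p47phox-/- replicate 3, or gp91phox-/- replicates 1, 2 or 3 (adjusted p = 0.0506 at the lowest and 0.0837 at the highest), nor without p47phox-/- replicates 2 and 3, where the log2 fold change was -1.05 (adjusted p = 0.257). The endothelial markers without Pecam1 summed to 3242 to 6070.3 in gp91phox-/-, lower than in 2 of the 3 p47phox-/- libraries, and their part in this difference was not tested.

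The other 3 surface molecules were not called in any comparison. Cd44 was the most abundant adhesion gene per length after Itgam and Itgb2 in WT and was at 36379.6, 34287 and 40115 in WT, 39496, 32925 and 34148 in p47phox-/- and 27013, 33891 and 37913 in gp91phox-/-, with overlapping groups. Selplg, which carries the sugars that selectins bind, ranged from 3809 to 6773, and its gp91phox-/- libraries were below all others (log2 fold change against WT -0.45, adjusted p = 0.102). F11r ranged from 1862 to 3975, with its gp91phox-/- libraries above the p47phox-/- ones (adjusted p = 0.112).

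**Figure D3:**
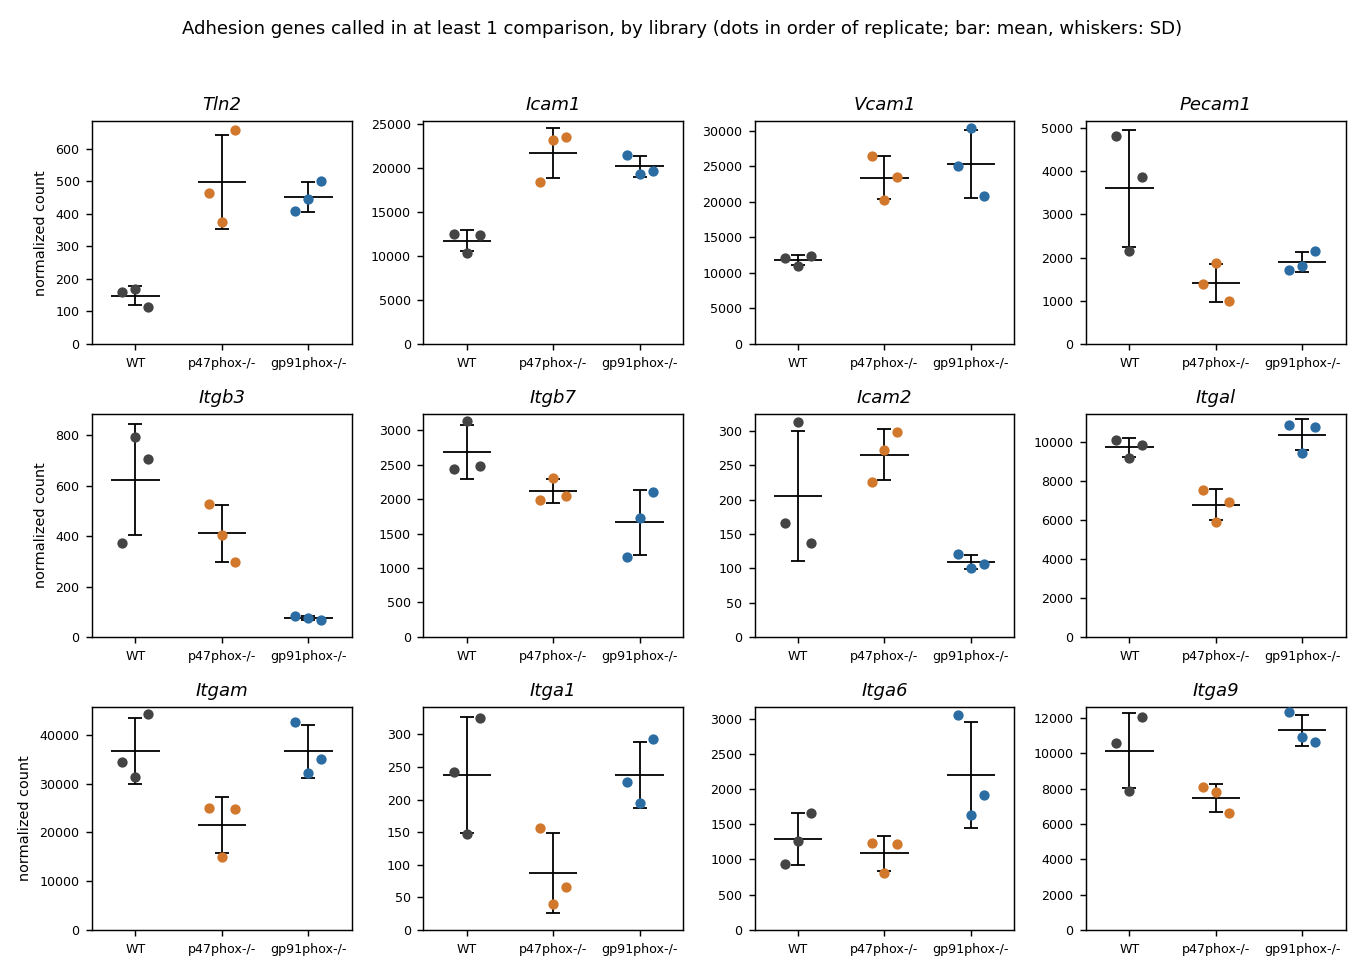
Normalized counts (y axis from 0) of the 12 adhesion genes called in at least 1 comparison, with 1 dot per library in order of replicate, the mean as a bar and the SD as whiskers. Tln2, Icam1 and Vcam1 sit higher in all 6 knockout libraries than in WT, Itgb3 is lowest in the 3 gp91phox-/- libraries, and Itgal and Itgam are lowest in the 3 p47phox-/- libraries.

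Among adaptors the 1 member called was Tln2, which rose in both knockouts. Talin 2 is the second talin gene and, like talin 1, links the integrin beta tail to actin (chromosome 9, 67217087 to 67559703). Tln2 was at 159.9, 169 and 115 in WT, 463, 375 and 657 in p47phox-/- and 409, 446 and 502 in gp91phox-/-. The lowest knockout library was 2.22 times the highest WT library. The rise was called in p47phox-/- (log2 fold change 1.73, SE 0.25, limma adjusted p = 0.0074) and in gp91phox-/- (log2 fold change 1.62, SE 0.25, limma adjusted p = 0.00178), and the difference between the knockouts was not called (log2 fold change -0.10, SE 0.25, adjusted p = 0.823). Leaving out any 1 library kept both calls, and without p47phox-/- replicates 2 and 3 the first had a log2 fold change of 1.66 (adjusted p = 0.079).

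Tln1 was not called. It was at 29886, 21992 and 26926 in WT, 25888, 22418 and 23458 in p47phox-/- and 25854, 23519 and 24108 in gp91phox-/-, with overlapping groups (log2 fold change -0.13 and -0.09 against WT, adjusted p = 0.712 and 0.775). As a share of both talins per kb of exon, Tln2 held 0.285, 0.408 and 0.228% in WT, 0.947, 0.884 and 1.47% in p47phox-/- and 0.838, 1.00 and 1.10% in gp91phox-/-. This share does not depend on the scaling of libraries, and it was higher in each knockout library than in each WT library (two-sided exact permutation test, p = 0.1 for each knockout, the smallest that 3 against 3 libraries allow). Tln1 held at least 98.5% of the talins in every library.

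**Figure D4:**
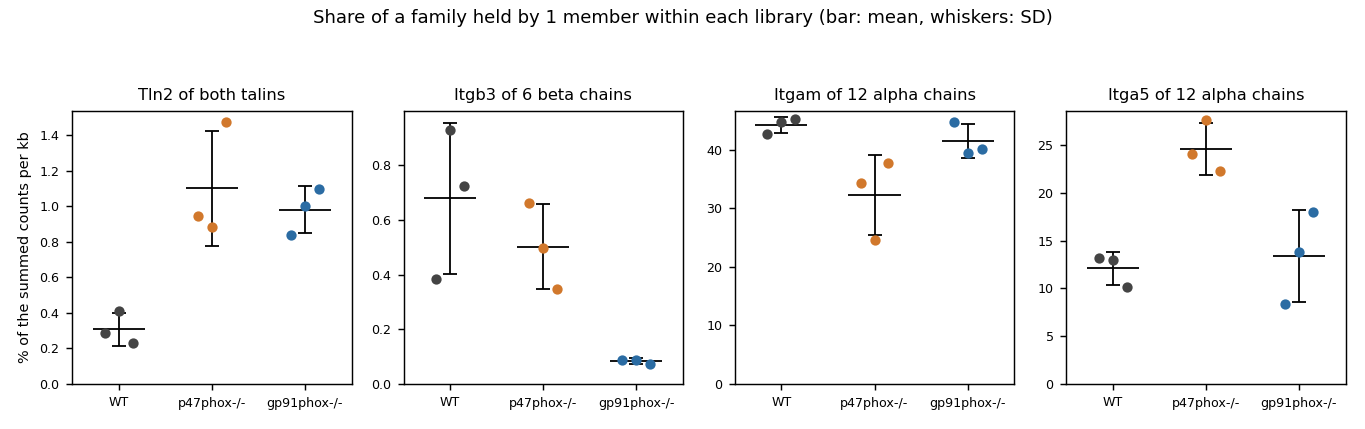
Share of a gene family held by 1 member within each library, in percent of the family's summed counts per kb of exon (y axis from 0), with 1 dot per library, the mean as a bar and the SD as whiskers. Tln2 is at 0.228 to 0.408% of the talins in WT and 0.838 to 1.47% in the knockouts, Itgb3 is lowest in gp91phox-/-, and Itga5 takes a greater share of the alpha chains in p47phox-/- than in either other group.

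The remaining 13 adaptors and kinases differed from WT by log2 fold changes of -0.39 to 0.66 in p47phox-/- and -0.43 to 0.40 in gp91phox-/-. None was called in any of the 3 comparisons in the main limma fit or in edgeR. Some limma alternatives did call them in gp91phox-/- versus WT. Ilk and Ptk2b were called with only the 2 groups, with array weights and without p47phox-/- replicate 2. Ptk2b and Pxn were called with quantile normalization. Between the knockouts Parvg was called without WT replicate 2 (limma adjusted p = 0.0463). Paxillin (Pxn), the scaffold of focal adhesions, was at 20245, 16907 and 19106 in WT, 17172, 16248 and 15287 in p47phox-/- and 14955, 14905 and 16202 in gp91phox-/-, where all libraries were below WT (log2 fold change -0.29, adjusted p = 0.197). Fermt3, needed for integrin activation in blood cells, was the steadiest member, at 8736, 8261 and 8429.7 in WT, 8114, 9568 and 8687 in p47phox-/- and 9381, 8703 and 8927 in gp91phox-/-. Its highest library was 1.18 times its lowest.

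Integrin-linked kinase and Pyk2 lay apart from WT without overlap, in opposite directions, and neither was called in the main fit. Such groups were near the general share. They were 21.4% and 35.7% of the 14 adaptors and kinases in p47phox-/- and gp91phox-/- versus WT, against 17.7% and 33.3% of all genes. Ilk was at 2657, 2594 and 2422 in WT, 2960.3, 3599 and 3276 in p47phox-/- and 3517, 3369 and 3234 in gp91phox-/-, with both knockouts above WT (log2 fold change 0.35 and 0.40, adjusted p = 0.181 and 0.0661). Taf10, whose exons overlap those of Ilk on the other strand, was not split from it here. Ptk2b was at 5608, 6189 and 6101 in WT, 5206, 4571 and 4398 in p47phox-/- and 4539, 4277 and 4743 in gp91phox-/-, with both knockouts below WT (log2 fold change -0.34 and -0.40, adjusted p = 0.192 and 0.0606). DESeq2 called both in gp91phox-/- (adjusted p = 0.00935 for Ilk and 0.0162 for Ptk2b). The pair was picked out with these values known. Vinculin (Vcl, 671 to 1262), zyxin (Zyx, 5602 to 8363), the alpha-actinins Actn1 (649 to 1188) and Actn4 (6126 to 8736) and the parvins Parvb (1903 to 2869) and Parvg (1118 to 2055), given as the range over the 9 libraries, had overlapping groups in both comparisons with WT, as did Fermt2 (51.9 to 119). Ptk2 ranged from 87.6 to 289.6 and was widest within p47phox-/-. Its gp91phox-/- libraries were all below WT (log2 fold change -0.43, not called).

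The beta chain Itgb3 fell in gp91phox-/- more than any other tested member of the list changed in the 3 comparisons. Itgb3 pairs with Itgav in the vitronectin receptor and with Itga2b on platelets (chromosome 11, 104608000 to 104670476). It was at 375, 792 and 707 in WT, 526, 406 and 299 in p47phox-/- and 83.7, 76.0 and 67.1 in gp91phox-/-. The lowest of the other 6 libraries was 3.57 times the highest gp91phox-/- library. The fall was called against WT (log2 fold change -2.96, SE 0.30, limma adjusted p = 9.86e-05) and against p47phox-/- (log2 fold change -2.39, SE 0.30, limma adjusted p = 0.000519), while p47phox-/- versus WT was no call (log2 fold change -0.57, SE 0.30, limma adjusted p = 0.399). Both calls held in all 22 alternatives. Its partner Itgav was at 6138, 4412 and 9662 in WT, 7008, 4665 and 5226 in p47phox-/- and 7829, 7476 and 7115 in gp91phox-/-, and was not called (adjusted p = 0.65 against WT). The platelet partner Itga2b was low throughout, at 27.3, 29.4 and 35.7 in WT, 22.7, 33.4 and 40.0 in p47phox-/- and 5.46, 15.7 and 24.2 in gp91phox-/-.

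Itgb7, which pairs with Itga4 in the gut homing integrin and with Itgae on mucosal lymphocytes and dendritic cells (chromosome 15, 102215995 to 102231944), was at 2442, 3131 and 2475 in WT, 1988, 2308 and 2043 in p47phox-/- and 1161, 1719 and 2105 in gp91phox-/-. Both knockouts were below WT in every library, and gp91phox-/- overlapped with p47phox-/-. The fall in gp91phox-/- was called by a narrow margin (log2 fold change -0.72, SE 0.20, limma adjusted p = 0.0461) and that in p47phox-/- was not called (log2 fold change -0.34, SE 0.20, limma adjusted p = 0.439). It was not called without WT replicates 1, 2 or 3, p47phox-/- replicates 1 or 3, or gp91phox-/- replicates 1 or 2 (adjusted p = 0.0613 at the lowest and 0.161 at the highest), nor without p47phox-/- replicates 2 and 3 (same log2 fold change, adjusted p = 0.0568), nor in edgeR (adjusted p = 0.0698).

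Markers of B cells, plasma cells and conventional dendritic cells were lower in the 3 gp91phox-/- libraries than in all others, and those of T cells, monocytes and neutrophils were not. The 10 B cell markers, of which 10 were called lower in gp91phox-/- versus WT, summed to 11166 to 21838 normalized counts in WT, 10202 to 18322 in p47phox-/- and 526 to 566 in gp91phox-/-, with none at 0 in all libraries. The 9 markers of conventional dendritic cells, of which 3 were called lower, summed to 6832 to 11127, 9236 to 10462 and 3942 to 5365 in the same order. Plasma cell markers summed to 20529 to 36000.3, 17732 to 26041 and 14261 to 16429, and T cell markers to 8272 to 14936, 12534 to 14033 and 10794 to 14881. Monocyte markers summed to 8906 to 21087 in WT and 13039 to 19004 in gp91phox-/-, and neutrophil markers to 4129.6 to 6035 and 5540.0 to 5971. The part of these cell types in the values of Itgb3 and Itgb7 was not tested.

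The 3 abundant beta chains were not called in any comparison. Itgb2, the shared beta chain of leukocyte integrins, was at 22224, 19310.1 and 22141 in WT, 18595, 18079.7 and 19177 in p47phox-/- and 15824, 16283 and 20818 in gp91phox-/-, with each p47phox-/- library below WT by a small amount (log2 fold change -0.19, adjusted p = 0.547). Itgb5, a partner of Itgav, was at 19057, 13397 and 17297 in WT, 10800.5, 15617 and 13917 in p47phox-/- and 22602, 17101 and 16290.3 in gp91phox-/-, with WT overlapping both. Itgb1, the most widely paired beta chain, was at 12119, 12629.6 and 13762 in WT, 14368, 10793 and 14528 in p47phox-/- and 16601, 15007 and 15589.9 in gp91phox-/-, where every library was above the other 6 (log2 fold change against WT 0.29, adjusted p = 0.246).

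The alpha chains held most of the calls between the knockouts. Against WT none of the 11 tested was called in the main limma fit or by edgeR. DESeq2 called Itgal, Itgam, Itga5 and Itga1 in p47phox-/- and Itga6 in gp91phox-/-. In limma 10 of 11 had negative log2 fold changes in p47phox-/- (median -0.42) and 9 of 11 positive ones in gp91phox-/- (median 0.09). Without p47phox-/- replicates 2 and 3, Itgav (0.13) and Itga8 (0.03) were positive in p47phox-/- versus WT, as Itga5 was (0.83). Itga4 (-0.04) and Itga6 (-0.01) were then barely negative, and the others stayed negative. Between the knockouts 5 of the 11 were called higher in gp91phox-/-, against 3.97% of all genes called higher, and the median log2 fold change was 0.60. Itgal (chromosome 7, 127296260 to 127335138) was at 10122, 9173 and 9868 in WT, 7516, 5914 and 6929.9 in p47phox-/- and 10879, 9455 and 10772 in gp91phox-/-. All p47phox-/- libraries were below all other libraries, which overlapped (log2 fold change 0.62, SE 0.13, limma adjusted p = 0.00962). Itgal remained called with any 1 library left out. Without p47phox-/- replicates 2 and 3 its log2 fold change was 0.46 (adjusted p = 0.168). Its difference from WT in p47phox-/- was a log2 fold change of -0.52 (adjusted p = 0.0754 in limma and 0.00315 in DESeq2).

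Itgam, which marks macrophages as CD11b (chromosome 7, 128062640 to 128118491), was at 34388, 31439 and 44263 in WT, 25066, 14929 and 24803 in p47phox-/- and 42759, 32123 and 35053 in gp91phox-/-. The p47phox-/- libraries were again the lowest, with replicate 2 the lowest of all (log2 fold change 0.79, SE 0.21, limma adjusted p = 0.0363, and against WT log2 fold change -0.79, adjusted p = 0.104). The difference between the knockouts was not called without WT replicate 1, p47phox-/- replicate 2, or gp91phox-/- replicates 1, 2 or 3 (adjusted p = 0.0558 at the lowest and 0.12 at the highest), and without p47phox-/- replicates 2 and 3 its log2 fold change was 0.54 (adjusted p = 0.291). Itgax, 11.1 kb from Itgam, was at 14678, 11212 and 18278 in WT, 12072, 14567 and 11138 in p47phox-/- and 18753, 15719.8 and 13432 in gp91phox-/-, with overlapping groups and no call.

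Itga9, which binds tenascin and osteopontin with Itgb1 (chromosome 9, 118606690 to 118901003), was at 10562, 7858 and 12055 in WT, 8089, 7794 and 6596 in p47phox-/- and 12331, 10915 and 10663 in gp91phox-/- (log2 fold change 0.60, SE 0.16, limma adjusted p = 0.0362). Itga6 (chromosome 2, 71745616 to 71858416) was at 931, 1262 and 1666 in WT, 1239.7, 801 and 1225 in p47phox-/- and 3049, 1638 and 1916 in gp91phox-/-, where replicate 1 stood highest (log2 fold change 0.99, SE 0.27, limma adjusted p = 0.0353). Itga1, a collagen receptor chain (chromosome 13, 114953096 to 115101964), was at 242, 147 and 325 in WT, 157, 39.6 and 65.7 in p47phox-/- and 227, 194 and 293 in gp91phox-/-, with p47phox-/- replicates 2 and 3 far below replicate 1 (log2 fold change 1.65, SE 0.45, limma adjusted p = 0.0392). In all 3 genes each gp91phox-/- library was above each p47phox-/- library, and WT overlapped with gp91phox-/- for each. The call of Itga9 was lost without WT replicate 1, p47phox-/- replicates 2 or 3, or gp91phox-/- replicates 1, 2 or 3 (adjusted p = 0.0511 at the lowest and 0.123 at the highest), that of Itga6 without WT replicate 2, p47phox-/- replicates 2 or 3, or gp91phox-/- replicates 1 or 3 (adjusted p = 0.0501 at the lowest and 0.125 at the highest), and that of Itga1 without WT replicate 1, p47phox-/- replicates 2 or 3, or gp91phox-/- replicates 1, 2 or 3 (adjusted p = 0.0607 at the lowest and 0.131 at the highest). Without p47phox-/- replicates 2 and 3, the log2 fold change was 0.48 for Itga9, 0.78 for Itga6 and 0.58 for Itga1 (adjusted p = 0.316, 0.311 and 0.529). For Itga1 and Itga9 those 2 libraries were the lowest of all, and for Itga1 alone both were far below p47phox-/- replicate 1. The part of their low number of genes with reads was not tested.

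Itga5 went the other way. It was at 10375, 8968 and 9743 in WT, 17215, 16392 and 14346 in p47phox-/- and 7835, 11010.0 and 15397 in gp91phox-/-. All p47phox-/- libraries were above all WT libraries, and gp91phox-/- replicates spread from below WT to within p47phox-/-. It was not called in limma (p47phox-/- versus WT, log2 fold change 0.72, SE 0.20, adjusted p = 0.113), but it was in DESeq2 (adjusted p = 0.0225) and in a limma fit of those 2 groups alone (adjusted p = 0.0447). As a share of the 12 alpha chains per kb within a library, Itga5 took 13.1, 13.0 and 10.1% in WT, 24.0, 27.6 and 22.3% in p47phox-/- and 8.36, 13.8 and 18.0% in gp91phox-/-, and Itgam 42.7, 44.8 and 45.2%, 34.3, 24.7 and 37.8% and 44.8, 39.6 and 40.1% in the same order. Both shares set each p47phox-/- library apart from each library of the other groups (exact permutation p = 0.1, two-sided, the smallest possible). A share falls in 1 chain when it rises in another, so these 2 are not independent.

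The other 4 alpha chains that passed were Itga4, Itgav, Itga8 and Itga3. Itga4, the chain that binds Vcam1, ranged from 3363 to 9548 over the 9 libraries, with p47phox-/- replicate 2 the lowest, and its groups overlapped in all comparisons. Itga8 (25.7 to 245) and Itga3 (11.4 to 84.8) had both their lowest and their highest library within p47phox-/-. Itga3 was the member closest above the limit, with 11.4 normalized counts in p47phox-/- replicate 2. The 2 members below the limit were Itgad, at 0, 0 and 14.6 in WT, 2.52, 0 and 0 in p47phox-/- and 6.37, 4.83 and 9.84 in gp91phox-/-, and Itgb8, a TGF-beta activating chain, at 14.1, 7.34 and 0, 4.20, 0 and 0 and 2.73, 0 and 2.68. Itgad lies 3.72 kb from Itgax, so Itgam, Itgax and Itgad are neighbours on chromosome 7 with unequal levels.

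Other genes of integrin signalling and adhesion come from a list of 134 that leaves out the 39. Of 120 tested, 1 rose and 2 fell in p47phox-/- versus WT, 2 rose and 12 fell in gp91phox-/- versus WT, and 4 were higher and 14 lower in gp91phox-/- than in p47phox-/-. Against 1.12, 7.05 and 9.93% of all genes, 2.5, 11.7 and 15% of the 120 were called, with median log2 fold changes of -0.04, -0.11 and -0.13. The matricellular protein Thbs1, a ligand of several integrins, had mean normalized counts ± SD over 3 libraries of 154780.0 ± 16790.2 for WT, 46049 ± 8270.4 for p47phox-/- and 136949 ± 30763 for gp91phox-/-. Thbs1 fell in p47phox-/- (log2 fold change -1.76, SE 0.21, limma adjusted p = 0.00301; without replicates 2 and 3 of p47phox-/-, -1.64 with adjusted p = 0.079). Tensin 1 (Tns1), which binds beta tails and actin, was at 3755 ± 248, 7556 ± 1511 and 3619 ± 609 in the same order and rose in p47phox-/- (log2 fold change 0.99, SE 0.17, limma adjusted p = 0.0155), and was not called leaving out WT replicates 2 or 3, or p47phox-/- replicate 3 (adjusted p = 0.0581 at the lowest and 0.0797 at the highest). Its log2 fold change without p47phox-/- replicates 2 and 3 was 1.25 (adjusted p = 0.0654). The fibroblast and smooth muscle markers given above were higher in the same libraries, with 14 of 14 log2 fold changes positive in p47phox-/-, and their part in the level of Tns1 was not tested. Cytip, a cytohesin-binding regulator of Itgal integrin adhesion, fell in p47phox-/- (log2 fold change -0.80, adjusted p = 0.0343), a call lost without WT replicates 2 or 3, p47phox-/- replicates 1 or 3, or gp91phox-/- replicates 2 or 3 (adjusted p = 0.05 at the lowest and 0.151 at the highest).

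In gp91phox-/- versus WT the Rap GTPases that drive talin to integrins rose. Rap1a went from 5499.6 ± 307 to 8279 ± 1363, a log2 fold change of 0.58 (adjusted p = 0.0197). Rap1b went from 15106 ± 2187 to 25321 ± 4894, or 0.74 in log2 (adjusted p = 0.0192). Rap1a was not called without WT replicates 1 or 3, or gp91phox-/- replicate 2 (adjusted p = 0.0586 at the lowest and 0.103 at the highest), and Rap1b without WT replicate 1, or gp91phox-/- replicates 2 or 3 (adjusted p = 0.0675 at the lowest and 0.0983 at the highest). Rasgrp2, an exchange factor that activates Rap, fell from 1008 ± 232 to 279 ± 30.1, or -1.83 in log2 (adjusted p = 0.000231). The lymphocyte adhesion receptor Cd2 fell from 533 ± 279 to 46.9 ± 17.2 (log2 fold change -3.42) and Itgae, the mucosal partner of Itgb7, from 113 ± 60.3 to 14.9 ± 4.12 (log2 fold change -2.75). The junction receptor Nectin1 fell from 901 ± 124 to 361 ± 93.3 (log2 fold change -1.34). The adjusted p of these 3 genes was 0.000231 to 0.00373, and each was called with any 1 library left out. These falls came in the libraries with low B cell and dendritic cell markers, and the part of those cells was not tested.

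Between the knockouts, Cd2, Itgae, Rasgrp2 and Tns1 were lower in gp91phox-/- (log2 fold change -3.39 to -1.06, adjusted p = 0.000281 to 0.00223), and Cdh1, the epithelial cadherin (1.88), Thbs1 (1.57), the integrin adaptor Fyb (0.68) and the Src family kinase Fgr (0.55) were higher (adjusted p = 0.000733 to 0.039). The 12 epithelial markers, Cdh1 among them, summed to 2497 to 5059 in gp91phox-/- and 1195 to 2691 in p47phox-/-, and their part in the level of Cdh1 was not tested. Fgr was not called without WT replicates 1 or 3, p47phox-/- replicates 1 or 3, or gp91phox-/- replicates 1, 2 or 3 (adjusted p = 0.051 at the lowest and 0.157 at the highest). The log2 fold change without p47phox-/- replicates 2 and 3 was 2.00 for Cdh1, 0.54 for Fyb and 0.68 for Fgr (adjusted p = 0.0652, 0.168 and 0.111).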

How the data were processed

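RNA was isolated with an RNeasy kit and read as paired ends on a NovaSeq, per the labels' protocols. Per the submitters' processing notes and the labels' protocols, reads were demultiplexed with bcl2fastq 2.19, trimmed with Cutadapt, aligned to mm10 with STAR 2.5.2b and counted per gene with featureCounts, and DESeq2 was used. Annotation and strand setting are not given in the sources used here. Each deposited value is a signal: the reads of a gene that the authors scaled by 1 size factor per library (1.05 to 1.66), called a normalized count here. All values (100%, tolerance 0.01) were whole multiples of 1 step per library, so whole reads were recovered for the count tools.

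Values were tested as log2(normalized count + 1) in limma 3.58.1 (R 4.3.3) with 1 fit of the 9 libraries, a mean-variance trend and Benjamini-Hochberg adjustment over 14404 genes with at least 10 in at least 3 libraries. Fold changes are on that scale and understate changes of low genes. Spreads are SD over 3 libraries. The fit was tested on simulated data. Values in every library are given for members called in a comparison and for the 3 most abundant of each role, and of other pathway genes at most 5 per direction and comparison with a mean of at least 50, of which 1 gene is not reported here. Members and lists were chosen with earlier results of these data known. Alternatives tried were the pseudocount, the filter, the scaling, a fit of 2 groups, a replicate block, no trend, array weights, each library left out, and, for the recovered reads, DESeq2 1.42.0 and edgeR 4.0.16 (133, 973 and 1315 genes in edgeR in the 3 comparisons, against 162, 1016 and 1430). The fit without p47phox-/- replicates 2 and 3 was added after seeing the data. Coordinates and exon lengths are from GENCODE M21 (GRCm38, the build also called mm10), with 39 of 39 members matched by symbol.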

Additional observations from a re-analysis of the deposited data

Results flagged for a closer look

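In 7 adhesion genes the effects of the 2 knockouts differed by the test of gp91phox-/- against p47phox-/- (limma, adjusted p under 0.05), which is the test of the difference between their effects against WT. The log2 fold change of gp91phox-/- against p47phox-/- was 0.62 for Itgal, 0.79 for Itgam, 1.65 for Itga1, 0.99 for Itga6 and 0.60 for Itga9, all of them alpha chains and higher in gp91phox-/-. It was -2.39 for Itgb3 and -1.27 for Icam2. In these 7 genes the libraries of the knockouts did not overlap. Without p47phox-/- replicates 2 and 3, which leaves 1 p47phox-/- library, all 7 kept their sign at log2 fold changes of 0.46, 0.54, 0.58, 0.78, 0.48, -2.79 and -1.05 in the order above, and Itgb3 was called.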

How the results depend on the processing

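No called result of a named gene changed sign in any alternative. The 16 called results of members gave 352 values over 22 alternatives, of which 268 remained called and 84 did not. Of the 16, 5 were called in all 22, namely Itgb3, Tln2, Icam1 and Vcam1 in gp91phox-/- versus WT and Itgb3 between the knockouts, and 7 in the 21 planned ones. The 19 called results of other pathway genes lost 48 of 418. Genes called were 162, 1016 and 1430 in p47phox-/- versus WT, gp91phox-/- versus WT and gp91phox-/- versus p47phox-/-. They became 678, 1754 and 2276 in DESeq2, 52, 596 and 898 with no trend, 101 in the first with only the 2 groups, and 2319 in the second with array weights. With 1 library left out they were 47 to 235, 520 to 1543 and 761 to 1661. Members called, 4, 5 and 7, became 1 and 2 in the first and last without a trend, 8 and 9 in the first and second in DESeq2, 9 in the second with array weights and 3 in the last without a filter. With 1 library left out they were 1 to 4, 4 to 7 and 2 to 8. Without p47phox-/- replicates 2 and 3, which leaves 1 library assumed to vary like the other groups, the first and last comparisons had 16 and 441 genes and 0 and 1 members. With the replicate block, genes called were 127, 877 and 1238 and members 3, 5 and 7. Replicate numbers share no stated source, and deviations of the 9 same-numbered pairs correlated at -0.04 to 0.08. In both other groups at once, 2 of 9 libraries correlated best with their own number. The highest correlations of any pairs were between same-numbered libraries of WT and gp91phox-/-, at 0.076 for replicates 1 and 0.063 for replicates 2. Why counts moved was not tested, apart from fewer libraries where some were left out.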

Other observations

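Within the alpha chains that pair with Itgb2, Itgax took 29.1, 43.9 and 27.9% of the summed counts per kb in p47phox-/- replicates 1, 2 and 3, against 26.7, 23.4 and 26.9% in WT and 27.7, 29.5 and 24.5% in gp91phox-/-. Replicate 2 of p47phox-/- stood apart from the other 8 libraries in this share. The share of Itgal in the same sum was 10.6 to 14.4% over the 9 libraries. Fermt2 held 0.60 to 1.61% of the kindlins and Ptk2 1.23 to 3.37% of Ptk2 and Ptk2b, both with the highest value in p47phox-/- replicate 1.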
